A study of Homo sapiens with 9 samples.

Results

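The promoters of 54 genes of DNA replication and nucleotide synthesis were followed through 9 ATAC-seq libraries of MDA-MB-231 cells, a human triple-negative breast cancer line. The genes were taken by name as S phase genes and classic E2F targets, out of 20033 protein-coding genes. In ATAC-seq the Tn5 transposase inserts adapters where chromatin is open, and a peak marks such a place. Each gene was represented by the strongest peak, by fold enrichment over local background, within 1 kb of its transcription start site (TSS), and the peak was expressed as its percentile among all peaks of the same library. A percentile of 90 therefore means that 90% of that library's peaks were weaker.

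The libraries came from cells transduced for 24 h with lentivirus carrying a control hairpin (Control shRNA, 2 libraries), a hairpin against EZH2 (shEZH2, 2 libraries), against E2F1 (shE2F1, 2 libraries) or against SUZ12 (shSUZ12, 1 library), each then kept in puromycin at 2 μg/ml for 72 h. A further library came from cells titled as DMSO, the solvent control, and another from cells given GSK126, an inhibitor of the methyltransferase activity of EZH2, and the labels give neither dose nor time for this pair. EZH2 and SUZ12 are subunits of the Polycomb complex PRC2, which methylates histone H3 at lysine 27, and E2F1 is a transcription factor of the S phase programme. The study asked how loss of EZH2 or of E2F1 alters accessible chromatin in this line. The labels do not say whether replicates came from separate cultures, so p-values measure only the spread between these libraries. The promoters of EZH2, E2F1 and SUZ12 held a peak in all 9 libraries, which does not check the knockdown, because a hairpin acts on the transcript.

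Before a cell divides, the origin recognition complex and its partners load the MCM helicase onto DNA, kinases and the GINS and CDC45 proteins then activate it, and polymerases held by the PCNA clamp copy both strands. Ribonucleotide reductase and the enzymes around it supply the nucleotides, and histone chaperones and the maintenance methylation machinery restore chromatin behind the fork. Genes of all these steps are expressed at the transition from G1 to S, where E2F factors released from the retinoblastoma protein bind their promoters. Knockdown of a cell cycle factor can alter the share of cells in S phase, and in a bulk library a change in that share and a change per cell cannot be told apart.

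The E2F recognition word was found in these promoters more often than in all promoters. The words TTTCCCGC, TTTGGCGC, TTTGCCGC and TTTCGCGC were searched on both strands from 250 bp upstream to 50 bp downstream of the TSS. Of the 54 genes, 26 held at least 1 (48.1%), against 4.36% of all 20033 protein-coding promoters and 5.49% of the 13020 promoters with a peak in both Control shRNA libraries. The share was 15.4% among 52 other replication genes and 6.38% among 47 mitosis genes. Origin licensing genes held a word in 8 of 11 promoters and DNA polymerase and primase genes in 6 of 9, whereas 1 of 6 clamp and clamp loader genes did. Because the genes were listed as E2F targets, the share describes the list and is no independent evidence about it. CCAAT, the word of the factor NF-Y, was found in 55.6% of the 54 promoters against 36.1% of all, and in 85.1% of the mitosis promoters. GGGCGG, a GC box, was found in 70.4% against 61.3%.

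The sites shown are a selection from genes whose values are described further on, read from GRCh38 on the strand of the gene, 5′ to 3′, with the E2F word in capitals.
CDC6 (chr17:40287875-40287904, plus strand): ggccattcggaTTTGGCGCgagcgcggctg
CDT1 (chr16:88803743-88803772, plus strand): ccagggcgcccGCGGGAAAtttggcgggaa
MCM2 (chr3:127598402-127598431, plus strand): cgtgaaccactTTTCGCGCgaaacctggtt
MCM6 (chr2:135876577-135876606, minus strand): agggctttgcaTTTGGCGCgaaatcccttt
MCM6 (chr2:135876515-135876544, minus strand): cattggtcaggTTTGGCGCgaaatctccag
MCM7 (chr7:100101388-100101417, minus strand): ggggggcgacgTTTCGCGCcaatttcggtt
GINS1 (chr20:25407667-25407696, plus strand): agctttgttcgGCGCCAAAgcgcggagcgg
GINS3 (chr16:58392455-58392484, plus strand): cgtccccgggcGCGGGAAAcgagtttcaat
RFC3 (chr13:33818083-33818112, plus strand): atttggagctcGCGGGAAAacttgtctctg
POLE (chr12:132687342-132687371, minus strand): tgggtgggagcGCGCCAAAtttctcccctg
POLE2 (chr14:49688201-49688230, minus strand): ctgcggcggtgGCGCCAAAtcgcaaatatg
TYMS (chr18:657603-657632, plus strand): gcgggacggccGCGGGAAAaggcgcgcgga
TIPIN (chr15:66356733-66356762, minus strand): ccccgcacggaTTTGGCGCcaaacgctgcg
UHRF1 (chr19:4909476-4909505, plus strand): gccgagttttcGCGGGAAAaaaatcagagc
Several sites hold overlapping words on opposite strands, as in MCM2, MCM6 and TIPIN, so 36 matches were counted in 26 promoters. The MCM6 promoter held 4 matches, the most of any of the genes. In 19 of the 26 promoters a word began within 50 bp of the TSS. A match describes the letters in the window and is not a measured binding site. RRM2, WDHD1, ORC6 and CHAF1B, whose values are given further on, had no match in this window.

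**Figure D1:**
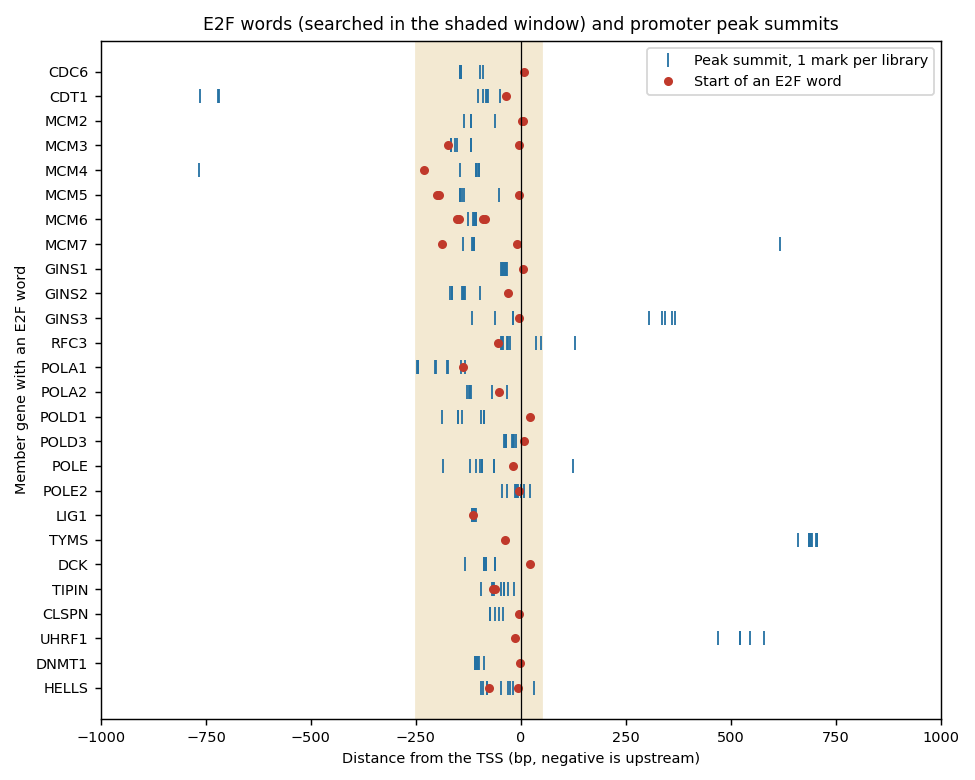
Positions of E2F words (red points) and of the summit of the promoter peak in each library (blue marks) relative to the TSS, in bp, for the 26 genes with a word. Words cluster at the TSS, and the summits of most genes lie within 200 bp upstream of it, while those of TYMS and UHRF1, and most of those of GINS3, lie downstream.

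The summit of the promoter peak usually lay just upstream of the TSS. The median over libraries fell within 200 bp upstream for 44 of the 54 genes, and in 52 genes the peaks of all libraries that had one shared at least 1 base. In 22 of the 26 genes with a word, the nearest word lay within 150 bp of the median summit. TYMS, which encodes thymidylate synthase, had its summits 660 to 704 bp downstream of the TSS, and UHRF1 had them 469 to 578 bp downstream. The exceptions without a shared base were CDT1, where the strongest peak was −721 and −720 bp from the TSS in the controls and −765 in the first shE2F1 library, and −103 to −50 bp from it elsewhere, and PRIM2, where the shSUZ12 library had its strongest peak −920 bp from the TSS. In 13 genes another protein-coding TSS lay within 1 kb, as for MCM4 and PRKDC or ORC6 and VPS35, and the peak cannot be assigned to one gene of such a pair.

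Peak lists held 58626 to 85812 peaks, with the fewest in the second shEZH2 library, and depth relative to the first Control shRNA library, read from the most frequent local background, ranged from 0.788 in that library to 1.22 in the second shE2F1 library. Of all protein-coding promoters, 62% to 66.7% had a peak. As a check of the line, the promoters of the mesenchymal genes VIM, CD44, CAV1 and AXL had a peak in all 9 libraries and GATA3, a luminal factor, had none. FOXA1, another luminal factor, and PGR had one in 7 libraries, ESR1 and CDH1 in 8 and EPCAM in 9. EPCAM, at percentiles of 61.3 to 92.2, ranked above VIM (22.1 to 60.3) and AXL (0.807 to 24.2), so the promoter peaks did not separate the marker lists, and a promoter peak is not expression.

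The promoters of the 54 genes ranked high in all 9 libraries. Their median percentile was 86.8 to 92.1, against 71.9 to 79.1 for all promoters with a peak. Other gene lists ranked high too, since in the Control shRNA group the median was 89.0 for these genes, 90.1 for 47 mitosis genes and 84.6 for 52 other replication genes. Ranked among promoter peaks only, where the median promoter stands in the middle by construction, their median was 70.8 to 76.3. In the first Control shRNA library the summits of these genes held a median of 116 tags (shifted read ends piled up at the summit), against 90 at all promoter summits. All 54 genes had a promoter peak in 7 libraries, and 53 had one in the second shEZH2 library and in the first shE2F1 library. The gene without a peak there was RPA3, which encodes the smallest subunit of the single strand binding protein RPA. Where it had one, the RPA3 peak was narrow and lay −849 to −782 bp from the TSS, with 20 to 37 tags at the summit. The sequence searched around this TSS was 32.7% G and C, against a median of 65.7% for the 54 genes. It held no E2F, CCAAT or GGGCGG word, and whether these cells use this TSS was not tested. Its percentile was 71.0 and 74.6 in the controls, 54.6 in the first shEZH2 library, 90.0 in the second shE2F1 library, 78.8 with shSUZ12, 73.0 with DMSO and 59.9 with GSK126. The libraries without the peak had relative depths of 0.788 and 0.838, and the GSK126 library, at 0.816, held it with 21 tags at the summit. The part of depth in the absence of the peak was not tested.

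**Figure D2:**
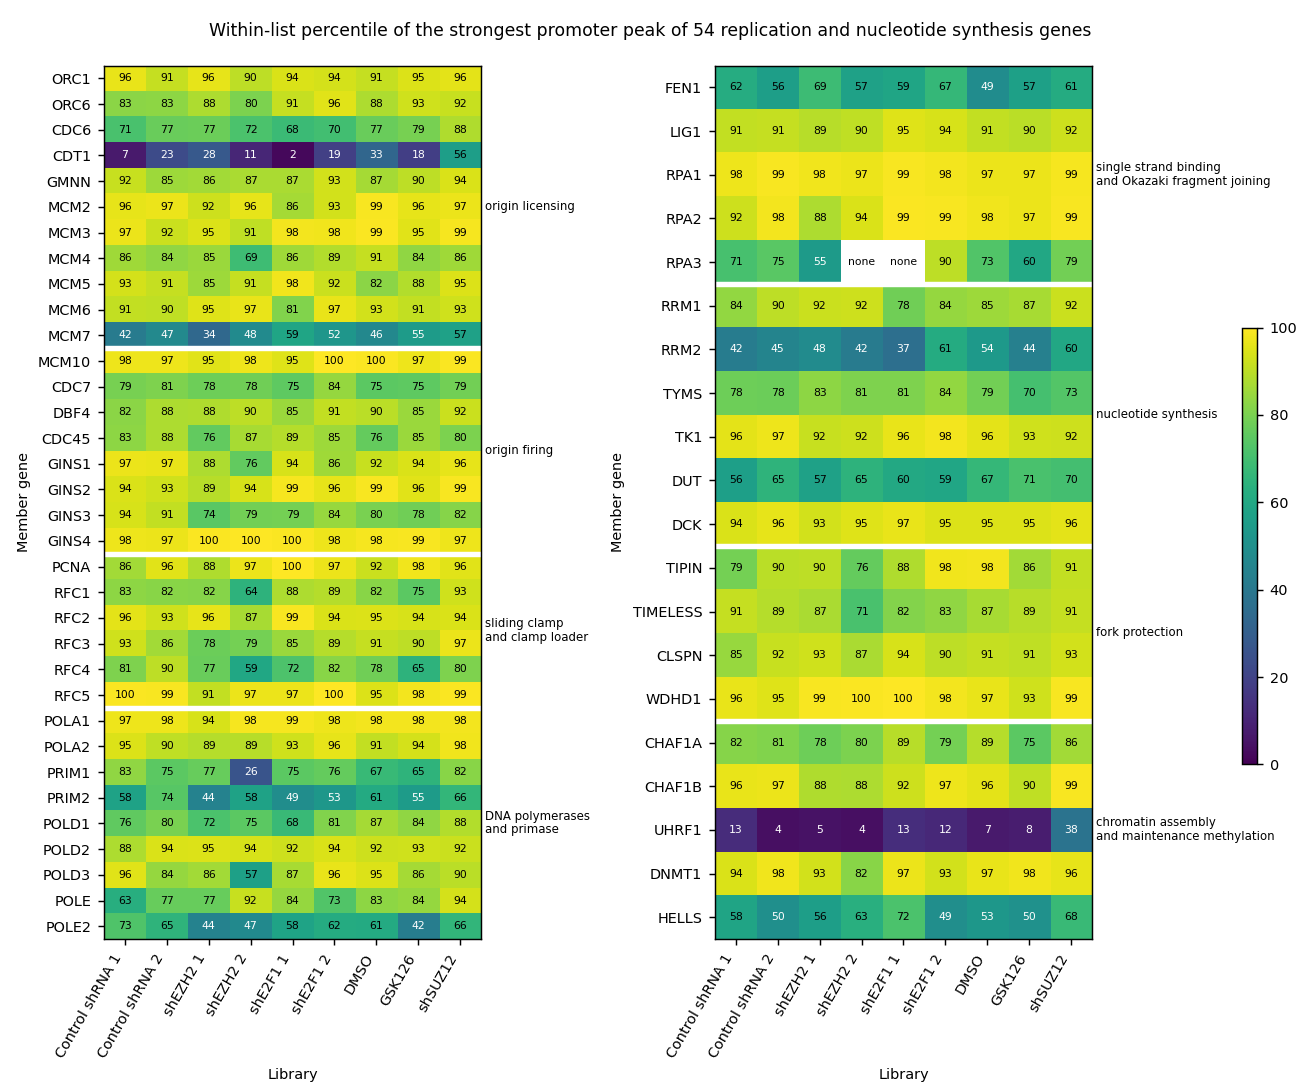
Within-list percentile (colour, 0 to 100, printed as whole numbers) of the strongest promoter peak of each gene (rows, grouped by role) in each library (columns). Most genes lie above 75 in every library, CDT1, UHRF1, RRM2 and MCM7 are low throughout, and RPA3 has no peak in 2 libraries.

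The highest mean percentiles in the Control shRNA libraries belonged to RFC5 (mean ± SD 99.3 ± 0.279, n = 2), a clamp loader subunit, RPA1 (98.3 ± 1.15), the large subunit of RPA, POLA1 (97.5 ± 0.103), the catalytic subunit of the priming polymerase, MCM10 (97.5 ± 0.0331), which helps to start the helicase, and GINS4 (97.3 ± 0.344), a GINS subunit. These 5 differed by less than about 2 percentile points and were not separated further. The lowest were UHRF1 (8.35 ± 6.05), which reads hemimethylated DNA, CDT1 (15.1 ± 11), an MCM loading factor, RRM2 (43.6 ± 2.27), the regulated subunit of ribonucleotide reductase, MCM7 (44.3 ± 3.71), a helicase subunit, and HELLS (54 ± 5.99), a chromatin remodeller. A low percentile of fold enrichment was not always a low number of tags. RRM2 (chr2, TSS 10122739) had 153 tags over a local background of 23.6 in the first Control shRNA library, and by tags alone it stood at percentile 96.5. MCM7 had 176 tags over 27.4 and stood at 98.0 by tags. UHRF1 had 88 over 20.2. CDT1 was low on both scales, with 36 tags and percentile 50.4 by tags. The median background was 8.61 at the 54 summits and 8.14 at all promoter summits.

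**Figure D3:**
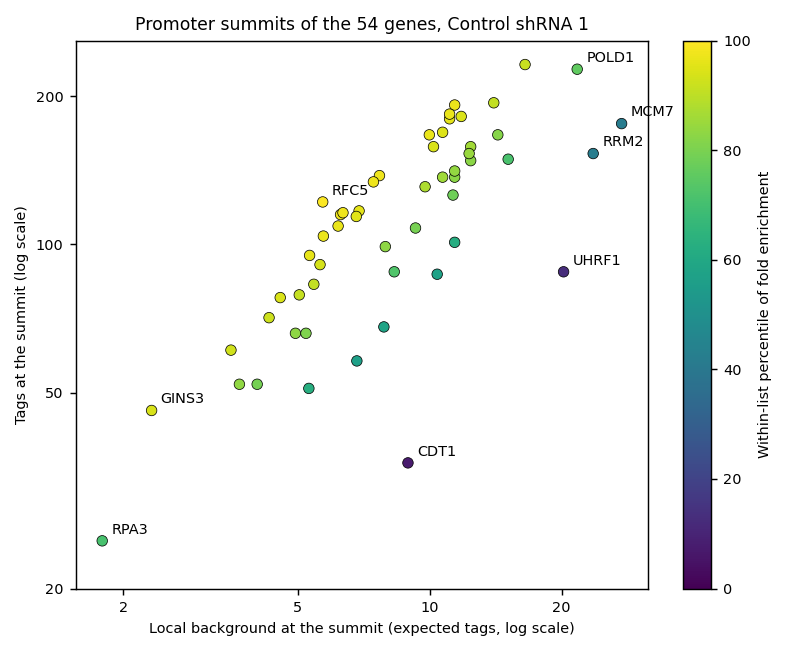
Tags at the summit against local background (both log scales) for the promoter peaks of the 54 genes in the first Control shRNA library, coloured by the percentile of fold enrichment. RRM2 and MCM7 combine many tags with the highest backgrounds, whereas CDT1 has few tags.

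EZH2 knockdown was compared with Control shRNA by limma over the 12070 protein-coding promoters with a peak in all 6 shRNA libraries. None of the 53 testable genes was called at an adjusted p below 0.05, and 0% of all 12070 promoters were called. At an unadjusted p below 0.05 there were 972 promoters (8.05%), among them 9 of the 53 genes, 8 of them lower and 1 higher with shEZH2. The smallest p among the genes was that of CHAF1B (limma adjusted p = 0.486). Without a call, the libraries were described by whether both shEZH2 libraries lay outside both controls. Of the 53 genes, 18 lay below (34%) and 6 above (11.3%), against 29.7% and 10.6% of all promoters. The median difference over the genes was −1.91 percentile points, against −2.58 over all promoters.

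The counts depended on the ranking. Among promoter peaks only, 11 genes lay below and 9 above (22.6% and 15.8% of all promoters). In lists of equal length, 10 lay below and 14 above (14.4% and 23.9%), and the median difference was −0.0554 against 1.30 for all promoters. Under all 3 rankings 10 of the 53 genes lay below (14.3% of all promoters did) and 6 above (10.8%). The 10 were GINS1, GINS3, RFC3, RFC4, RFC5, POLE2, TK1, TIMELESS, CHAF1B and DNMT1, and the 6 were MCM6, DBF4, GINS4, RRM1, TYMS and WDHD1. MCM5, CDC7, RFC1, POLA2, PRIM2, POLD1, LIG1 and CHAF1A lay below within the list only or in 2 of the rankings.

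Of the 11 origin licensing genes, 1 lay below both controls with shEZH2 (MCM5) and 1 above (MCM6), and differences over the group ran from −7.46 points (MCM4) to 5.28. MCM6 (chr2, TSS 135876443), a helicase subunit, stood at 90.8 and 90.5 in the controls and 95.3 and 96.6 with shEZH2. Both knockdown libraries were higher, by 5.28 ± 4.46 (limma SE) points. Among origin firing genes, 3 of 8 lay below and 2 above. GINS1 (chr20, TSS 25407673), a subunit of the GINS complex that holds the helicase together, stood at 97.0 and 96.8 in the controls and at 87.7 and 76.1 with shEZH2, a difference of −15.0 ± 4.43 points (limma adjusted p = 0.507). The GINS1 summit held 104 and 108 tags in the controls and 58 and 32 with shEZH2, at relative depths of 1.00, 1.16, 1.09 and 0.788. Tags scaled to depth were below both controls with shEZH2 at 80.6% of all promoters, so fewer tags were the general pattern there. GINS3 (chr16, TSS 58392471), another subunit, stood at 94.1 and 90.8 and at 74.4 and 78.7, a difference of −15.9 ± 4.79 points (limma adjusted p = 0.520). GINS4, a further subunit, stood at 97.5 and 97.0 in the controls and 99.6 and 99.8 with shEZH2 (limma adjusted p = 0.669). DBF4, the activator of the CDC7 kinase, was higher at 87.9 and 90.1 against 82.5 and 87.7.

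Of the 6 clamp and clamp loader genes, 4 lay below both controls within the list and 3 under each of the other rankings, where 29.7%, 22.6% and 14.4% of all promoters did. RFC4 (chr3, TSS 186806482) stood at 80.6 and 90.2 in the controls and 77.0 and 59.4 with shEZH2, a difference of −17.2 ± 8.19 points. RFC3 (chr13, TSS 33818149) stood at 92.9 and 86.3 in the controls and 77.5 and 79.1 with shEZH2. RFC1, the large subunit, stood at 83.2 and 82.4 in the controls and 81.8 and 64.5 with shEZH2, so its difference of −9.68 points came mainly from the second shEZH2 library, the shallowest of all, and it overlapped the controls in both other rankings. RFC5 was also below both controls, and the clamp PCNA overlapped them at 87.9 and 96.9 against 86.2 and 95.6.

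Of the DNA polymerase and primase genes, 4 of 9 lay below and none above within the list, 2 below and 2 above among promoter peaks only, and 1 below and 2 above in lists of equal length. POLE2 (chr14, TSS 49688214), the second subunit of the leading strand polymerase, had the largest difference of the genes outside both controls. It stood at 72.6 and 65.1 in the controls and 44.2 and 47.3 with shEZH2, a difference of −23.1 ± 8.44 points (limma adjusted p = 0.564). The groups did not overlap. PRIM2, a primase subunit, stood at 57.8 and 74.2 in the controls and 44.2 and 57.6 with shEZH2, where the nearest libraries of both groups almost touched, and it overlapped the controls in both other rankings. PRIM1, the other primase subunit, was at 76.7 and 26.1 with shEZH2, and only the second library, with 15 tags at its summit, stood apart from 83.4 and 74.9. POLE, the catalytic subunit beside POLE2, overlapped the controls within the list at 76.6 and 91.6 against 62.8 and 76.9. It lay above both controls among promoter peaks only and in lists of equal length, with differences in mean of 24.4 and 22.4 points. The nearest libraries were close, at 55.0 against 51.4 among promoter peaks only.

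Of the 4 single strand binding and Okazaki fragment genes, LIG1 lay below both controls with shEZH2, at 89.2 and 90.4 against 90.7 and 91.3. The 6 nucleotide synthesis genes lay on both sides, with 2 above and 1 below. RRM1, the large subunit of ribonucleotide reductase, stood at 83.8 and 89.9 in the controls and 92.1 and 92.2 with shEZH2, and both knockdown libraries were higher. TYMS stood at 77.8 and 77.7 in the controls and 83.2 and 80.6 with shEZH2, also higher. TK1, which encodes thymidine kinase, was lower, at 91.6 and 92.5 against 95.8 and 97.3. RRM2 was at 42.0 and 45.2 in the controls and 48.3 and 41.5 with shEZH2, and the groups overlapped within the list. RRM2 lay above both controls among promoter peaks only and in lists of equal length, with differences in mean of 3.92 and 15.9 points. Of the fork protection genes, TIMELESS, a fork protection factor, stood at 91.4 and 89.0 in the controls and 87.3 and 71.1 with shEZH2, lower, and WDHD1, which links helicase and polymerase, at 96.5 and 95.0 in the controls and 99.0 and 99.5 with shEZH2, higher by 3.5 ± 1.38 points. In the chromatin group, CHAF1B (chr21, TSS 36385392), a subunit of the CAF-1 histone chaperone, was named after its values were seen, for its p. It stood at 96.5 and 97.0 in the controls and 87.9 and 87.7 with shEZH2, a difference of −9.02 ± 2.40 points with almost no spread within either group. DNMT1, the maintenance methyltransferase, stood at 94.4 and 97.8 in the controls and 93.2 and 82.4 with shEZH2. The values of RFC4, TIMELESS and DNMT1, like that of RFC1, were lowest in the second shEZH2 library.

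**Figure D4:**
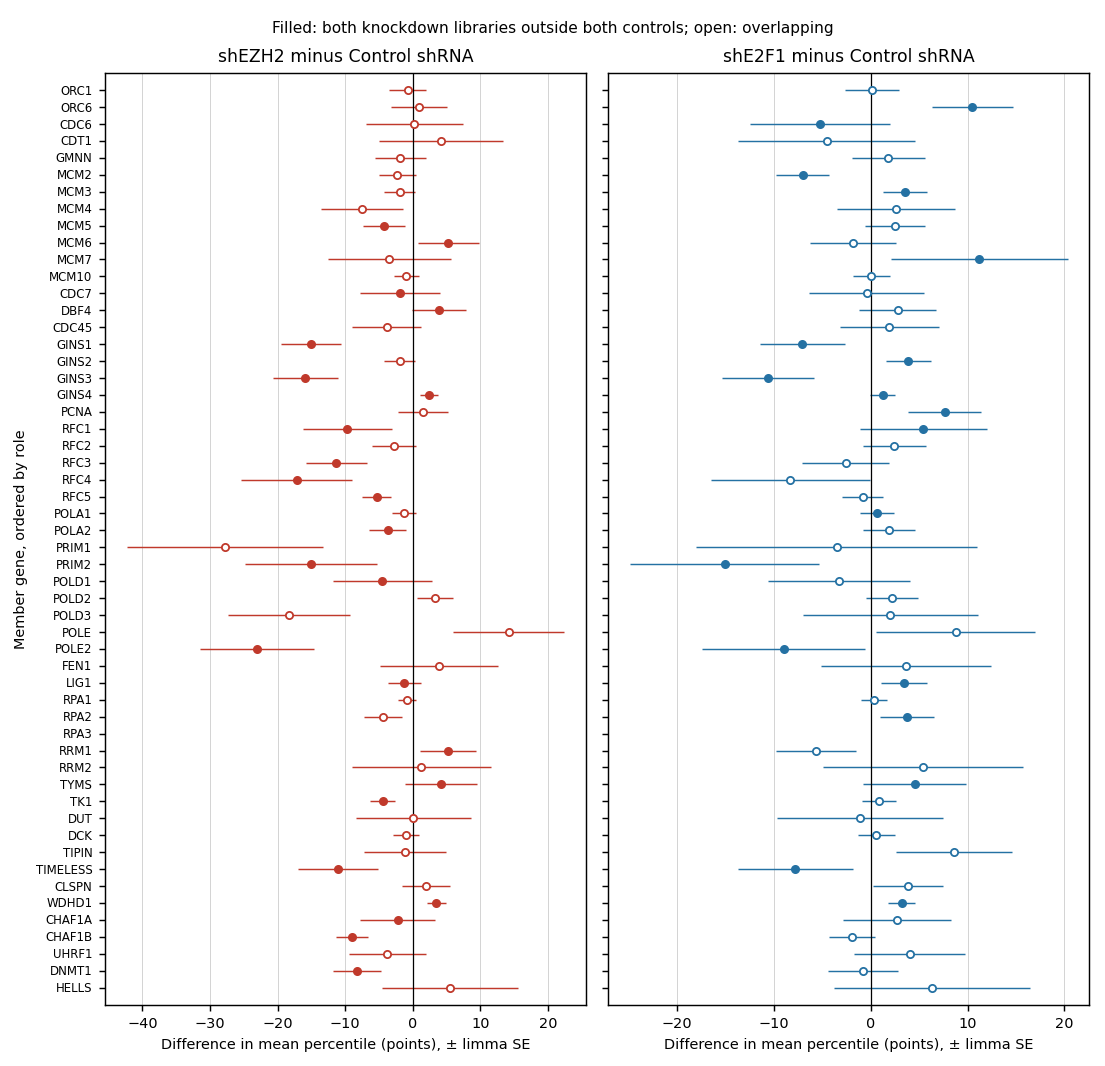
Difference in mean percentile (points, x axis) from Control shRNA for each gene (y axis) with shEZH2 (left) and shE2F1 (right), 2 libraries per group, with bars for the limma standard error. Filled points mark genes whose knockdown libraries both lie outside both controls, 24 of 53 with shEZH2 and 19 of 53 with shE2F1, and none passed an adjusted p of 0.05.

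E2F1 knockdown gave no call either. By limma 0% of the 12070 promoters and none of the 53 genes passed an adjusted p of 0.05, and at an unadjusted p below 0.05 there were 508 promoters (4.21%), with 3 of the genes among them. Of the 53 genes, 12 lay above both controls (22.6%) and 7 below (13.2%), against 19.2% and 17.0% of all promoters. The median difference was 1.81 points over the genes and −0.0715 over all promoters. The sign of the median over the genes depended on the measure. Ranked by −log10 p it was −0.430 points, with 12 genes below. Values over all promoters are not given here for that ranking, so a shift common to all promoters cannot be told apart there. On the centred tags described further on, the median over the genes was −0.03 on the log2 scale, against 0 over all promoters. Among promoter peaks only, 10 lay above and 10 below (16.6% and 20.8% of all promoters). In lists of equal length the counts were 14 and 7 of 52 (22.3% and 15.4%). Under all 3 rankings 10 genes lay above (14.9% of all promoters did) and 6 below (13.1%), which were ORC6, MCM3, MCM7, GINS2, PCNA, RFC1, LIG1, RPA2, TYMS and WDHD1 above and MCM2, GINS1, GINS3, PRIM2, POLE2 and TIMELESS below.

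Genes with and without an E2F word gave similar medians after E2F1 knockdown. Of the 26 with a word, 6 lay above and 5 below both controls, with a median difference of 1.96 points. Of the 27 without one, 6 lay above and 2 below, with a median of 1.23. The difference between the groups was not tested.

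Within origin licensing, 3 of 11 genes lay above and 2 below both controls with shE2F1. ORC6 (chr16, TSS 46689659), a subunit of the origin recognition complex, stood at 82.7 and 83.1 in the controls and 91.1 and 95.7 with shE2F1, higher by 10.5 ± 4.17 points (limma adjusted p = 0.977). Its peak also covers the start of VPS35. MCM7, whose peak also covers the start of AP4M1, stood at 41.7 and 46.9 in the controls and 58.6 and 52.4 with shE2F1. MCM3 stood at 97.0 and 92.1 in the controls and 98.1 and 98.0 with shE2F1, and both helicase genes were higher. MCM2 (chr3, TSS 127598411), a helicase subunit like both of them, was lower, at 86.4 and 93.1 against 96.3 and 97.2, a difference of −7.04 ± 2.74 points (limma adjusted p = 0.977). CDC6, the loader of the helicase, was at 68.0 and 69.9 against 71.3 and 77.2 and overlapped the controls in lists of equal length.

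In the origin firing group GINS2 was higher, at 98.6 and 96.1 against 94.2 and 92.7, and GINS1 and GINS3 were lower, at 93.8 and 85.9 and at 79.2 and 84.5. The GINS1 summit held 54 and 63 tags, at relative depths of 0.838 and 1.22. PCNA stood at 86.2 and 95.6 in the controls and 99.8 and 97.2 with shE2F1, and RFC1 at 83.2 and 82.4 and 87.6 and 88.9, both higher. The differences were 7.63 ± 3.74 and 5.43 ± 6.54 points. RPA2, a subunit of RPA, stood at 99.3 and 99.1 against 92.5 and 98.4, and LIG1, the ligase that joins Okazaki fragments, at 95.0 and 93.9 against 90.7 and 91.3. PRIM2 at 49.0 and 52.9 and POLE2 at 58.1 and 61.7 lay below both controls, with differences of −15.1 and −8.99 points. TYMS (80.8 and 83.7) and WDHD1 (99.7 and 98.2) were above both controls, TIMELESS (81.5 and 83.4) was below, and no chromatin gene was outside them. RRM2 stood at 36.6 and 61.4 with shE2F1, so that its replicates lay on either side of the controls within the list. RRM2 overlapped them among promoter peaks only and lay above both in lists of equal length, with a difference in mean of 11.9 points. In the 13 genes with a neighbouring TSS, a split made after the values were seen, all differences with shE2F1 were positive, from 0.137 to 11.2 points. Among promoter peaks only 11 of the 13 were, and of all 2503 promoters with such a neighbour 1354 were higher and 1149 lower.

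Both knockdowns were set against the same 2 controls, so agreement between them was not counted as a result. A direct limma comparison of shEZH2 with shE2F1 called 0% of 12070 promoters and none of the genes, with 1198 promoters (9.93%) and 8 of the genes at an unadjusted p below 0.05. The lowest adjusted p was that of TK1, 0.470, which stood at 91.6 and 92.5 with shEZH2 and 96.5 and 98.3 with shE2F1. TYMS was higher by the 3 rankings of fold enrichment, but ranked by −log10 p it differed by −2.62 points with shEZH2 and −2.87 with shE2F1.

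Recovered tags gave another view, which was added after the data were seen. Divided by the most frequent background of the library, tags were lower with knockdown at most promoters. The scale rests on that background and total reads were not used. A loss of accessibility and a change in background therefore cannot be told apart on it. Both shEZH2 libraries lay below both controls at 80.6% of all promoters and above at 0.531%, and for shE2F1 these shares were 78.9% and 1.06%. Of the 53 genes, 48 lay below with shEZH2 and 47 with shE2F1, and none above. The median log2 difference was −0.50 over the genes and −0.43 over all promoters with shEZH2, and −0.51 and −0.47 with shE2F1. Relative to that shift, with each library centred on all promoters, 8 genes lay below and 11 above with shEZH2 (14.2% and 21.2% of all promoters). With shE2F1, 10 lay below and 9 above (19.0% and 19.7%). On the centred log2 scale GINS1 differed by −0.61 with shEZH2, RFC4 by −0.38, POLE2 by −0.36 and RFC5 by −0.34, all below both controls, as TIMELESS and DNMT1 were. POLD3 (−0.559), which overlapped the controls by percentile, was also below. CDT1 (0.658), POLE (0.374), WDHD1 (0.33) and MCM6 (0.28) were above. The CDT1 value compares different peaks, with summits −721 and −720 bp from the TSS in the controls and −90 and −83 bp with shEZH2. CDC7 (0.160), POLA2 (0.152) and LIG1 (0.120), which lay below both controls within the list with shEZH2, were above both on this scale. With shE2F1, TYMS (−0.23) and MCM3 (−0.14), which lay above both controls by the percentile, lay below both on this scale. Other genes named for their percentiles overlapped the controls here. With shEZH2 these were GINS3 (−0.15), CHAF1B (−0.29), RFC3, TK1, GINS4, RRM1 and TYMS. With shE2F1 they included GINS1 (−0.29), GINS3 (−0.0682), PRIM2 (−0.00988) and POLE2 (−0.15), which is 4 of the 6 genes below under all 3 rankings. Of the genes above under all 3 rankings, ORC6 (0.0460), MCM7 (−0.0195), PCNA (0.247), RFC1 (0.0972) and WDHD1 (0.175) overlapped too. GINS2 (0.382), LIG1 (0.168) and RPA2 (0.395) stayed above both controls.

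SUZ12 knockdown was represented by 1 library, so no test was made, and a gene was counted when it differed from both controls by at least 10 points. Of the 54 genes, 6 were higher (11.1%) and none lower, against 9.67% and 3.00% of all promoters. The median difference was 2.42 points, against 2.73 over all promoters. CDT1 stood at 56.0 against 7.40 and 22.9, UHRF1 at 38.2 against 12.6 and 4.07, POLE at 93.7 against 62.8 and 76.9 and RRM2 at 59.8 against 42.0 and 45.2. CDC6 and MCM7 were the others. HELLS, also among the 5 lowest genes in the controls, stood at 67.8 against 58.3 and 49.8 and did not pass, and genes low in the controls have more room above them. The strongest CDT1 peak was at the TSS there and further upstream in the controls. Among promoter peaks only, 7 genes were higher and 4 lower (6.18% and 6.77% of all promoters), and UHRF1, RRM2 and MCM7 no longer passed the 10 points. GINS1 (96.3), POLE2 (65.7) and CHAF1B (99.1) lay within 10 points of the controls.

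GSK126 was compared with DMSO, 1 library each, by the same 10 points. Of the 54 genes, 7 were lower (13.0%) and none higher, against 15.4% and 6.87% of all promoters. The median difference was −1.0 points against −0.764. POLE2 stood at 42.3 against 61.1 in DMSO, CDT1 at 18.4 against 33.2, CHAF1A, the large CAF-1 subunit, at 74.9 against 88.9, and RFC4 at 64.8 against 78.2. RPA3, TIPIN and RRM2 were the others. Among promoter peaks only, 12 genes were lower and 4 higher (15.0% and 12.6% of all promoters). The DMSO library itself stood apart from the Control shRNA libraries for some genes, with GINS3 at 79.8 against 94.1 and 90.8, so values with GSK126 were set against DMSO and not against the hairpin controls. GINS1 was at 94.3 with GSK126 and 91.5 with DMSO, and GINS3 at 78.2 and 79.8.

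Of 51 other replication genes with shEZH2, 14 lay below and 6 above both controls, which was 27.5% and 11.8% against 29.7% and 10.6% of all promoters. In lists of equal length 9 of 50 lay below and 16 above (18.0% and 32.0% against 14.4% and 23.9%). With shE2F1 10 lay below and 11 above (19.6% and 21.6% against 17.0% and 19.2%). UMPS, which makes uridine monophosphate, had the largest difference with shEZH2, at 59.9 and 32.3 against 87.2 and 88.3. TOPBP1, an activator of origins, followed at 44.4 and 21.1 against 51.4 and 53.2, and DNA2, a nuclease of Okazaki fragments, at 65.5 and 54.7 against 78.9 and 70.7. CAD (55.4 and 59.7 against 53.3 and 48.0), MTHFD1 and RRM2B were higher. With shE2F1, RNASEH2C, a subunit of RNase H2, stood at 30.6 and 38.6 against 56.8 and 59.9, CHTF18, a clamp loader subunit, at 5.74 and 14.6 against 26.0 and 24.6, and DNA2 at 70.2 and 51.6, all lower. PAICS, a purine synthesis enzyme, was higher at 90.0 and 85.3 against 71.3 and 80.6, as were TOPBP1 and RRM2B. Of the 47 mitosis genes, 13 lay above and 9 below with shEZH2, and 14 and 1 with shE2F1. These were 27.7% and 19.1% with shEZH2, against 10.6% and 29.7% of all promoters, and 29.8% and 2.13% with shE2F1, against 19.2% and 17.0%.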

How the data were processed

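One narrowPeak list per library was used as deposited. Per the study's methods, reads were aligned with Bowtie2 (GRCh38 per the submitters' processing notes) and shifted for the Tn5 cutting position before peak calling, and the caller is not given in the sources used here. The deposited lists hold, per peak, a score, a fold enrichment (a ratio over local background) and −log10 p and −log10 q, all made by the authors' caller, and the score was not used. Reads per promoter were not used here.

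Canonical transcripts (GENCODE release 44) of 20033 protein-coding genes gave the TSSs, a promoter reached 1 kb to each side, and a peak counted from an overlap of 1 bp. Its fold enrichment was ranked in the list, among promoter peaks, and in lists limited to their 58626 strongest peaks by −log10 p. Whole tags and background at a summit were recovered from fold enrichment and −log10 p, assuming a Poisson test with 1 added to both, exact to within 0.00118 in −log10 p. Percentiles were fitted with limma 3.58.1 (R 4.3.3, mean trend, group only, 6 libraries, Benjamini-Hochberg), with simulated data used to test the scripts. Scripts ran in Python 3.11.15 with pandas 2.3.3. Genes named were RRM2, those without a peak somewhere, the 5 highest and lowest in the controls, and those outside the controls with the largest differences (up to 8 per direction, 4 for single libraries, 3 for other replication genes). The members and lists were chosen with earlier results of these data known. Alternatives were a narrower window, the nearest peak, a −log10 q of at least 5, ranks by −log10 p, absent peaks at 0, quantile normalized log2 fold enrichment, normal scores, a replicate block, all 9 libraries, another control, and leaving out each library.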

Additional observations from a re-analysis of the deposited data

Results flagged for a closer look

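RFC1 and LIG1 lay on opposite sides of both Control shRNA libraries in the EZH2 and E2F1 knockdowns, which drew attention to them. RFC1 differed from the controls by −9.68 percentile points with shEZH2 and by 5.43 with shE2F1, and shEZH2 minus shE2F1 was −15.1 points (limma adjusted p = 0.50). LIG1 differed by −1.22 and 3.44 points, and shEZH2 minus shE2F1 was −4.66 (limma adjusted p = 0.561). Neither difference passed the test. The shEZH2 value of LIG1 changed sign in lists of equal length. On the centred log2 tags LIG1 lay above both controls with shEZH2 (0.120) and with shE2F1 (0.168), and RFC1 overlapped them (−0.201 and 0.0972).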

How the results depend on the processing

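No gene was called in any of 17 further limma fits, where the smallest adjusted p of a gene ranged from 0.112 to 1.000. Differences were recomputed only for results that lay outside both controls within the list. Of these 516 differences, 11 changed sign, in 7 results, and the causes were not tested. Genes that overlapped the controls were left out of that count, and some of them changed sign too. With shEZH2, MCM7 differed by −3.48 points within the list, 1.17 among promoter peaks only and 9.27 in lists of equal length. Of the 53 genes, 17, 20 and 26 were higher with shEZH2 under these rankings. Ranked among promoter peaks only, 11 genes lay below with shEZH2, 4 were lower with shSUZ12, and 4 were higher and 12 lower with GSK126, while CDC7 with shEZH2 turned to 0.182. In lists of equal length, 14 lay above and 10 below with shEZH2 (23.9% and 14.4% of all promoters), with a median of −0.0554 against 1.30. In these lists 11 of 54 (20.4%) were higher with shSUZ12, against 19.2% of all promoters, with a median of 4.47 against 5.20. With GSK126 3 (5.56%) were higher, against 13.4%. There CDC7 (2.86), POLD1 (0.348), LIG1 (0.820) and CHAF1A (2.06) changed sign with shEZH2. Ranked by −log10 p, 3 lay above with shEZH2, 12 below with shE2F1 (median −0.430), 3 were higher with shSUZ12 (median 0.245) and 4 lower with GSK126. RRM1 (−0.184) and TYMS (−2.62) with shEZH2 and TYMS (−2.87) with shE2F1 changed sign. On quantile normalized log2 fold enrichment, 14 lay above and 9 below with shEZH2, and CDC7 (0.0288), LIG1 (0.00246) and CHAF1A (0.0156) changed sign. With Control shRNA in place of DMSO, 4 genes were lower with GSK126. Tags over the modal background, chosen after seeing the data, gave 0 above and 48 below with shEZH2, 0 and 47 with shE2F1, and 11 and 8 with shEZH2 once centred. Leaving out each library in turn, 10 to 15 genes lay above and 24 to 28 below with shEZH2, 21 to 28 above and 10 to 18 below with shE2F1, and 0 to 1 were lower with shSUZ12. With 1 library left in a group, more genes fall outside by construction, and in the fit that library was assumed to vary like the others. Shares over all promoters are not given here for several settings. These are the ranking by −log10 p, the quantile normalized values, Control shRNA in place of DMSO, and a library left out. Counts under those settings describe the list and do not set it apart from other promoters.

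No shared effect of the replicate numbers was seen between groups, which cannot show whether the libraries were prepared as pairs. Differences between replicates 1 and 2 correlated at 0.0540, 0.0588 and −0.0239 between groups over 12070 promoters. With a replicate block in the fit, 0 genes were called, and the smallest adjusted p of a gene was 0.587 with shEZH2, 0.975 with shE2F1 and 0.504 between them. With 2 libraries a group, many differences of a few points lay within the replicate spread. That spread varied between genes, and some small differences exceeded it without passing the test.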
